A study of Mus musculus with 10 samples.

Results

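The 10 genes described here encode chemokines, a proteoglycan, growth factors and matrix proteins that platelets store in alpha granules. They were taken by symbol from the deposited table of gene counts as Pf4, Ppbp, Ccl5, Srgn, Clu, Sparc, Thbs1, Tgfb1, Angpt1 and Mmrn1, which are 10 of its 23420 rows. Platelets sorted from the peripheral blood of adult mice formed 2 groups, Tomato+ and Tomato-, with 5 libraries each, numbered 1 to 5 within each group by their titles. Tomato is a red fluorescent protein. What drives its expression (a gene or Cre line), the mouse strain, sex and any treatment were not given. The comparison asks whether platelets with and without the reporter carry the same transcripts. RNA was selected for polyadenylation and made into cDNA along its full length (Smart-seq+), and the libraries were built with Nextera XT, per the labels' protocols. Nothing in the labels says that the libraries of a group came from separate mice, so a p-value here speaks only of variation among these libraries, which could be technical in part or whole. The sample numbers in the titles put all Tomato+ libraries before all Tomato- libraries, so that order and the reporter cannot be told apart.

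Alpha granules are the most numerous secretory granules of platelets. They are assembled in megakaryocytes, the bone marrow cells that shed platelets, and are emptied when a platelet is activated at a wound. Part of their cargo is made by the megakaryocyte itself, as are the CXC chemokines and thrombospondin 1, and part is taken up from plasma, as is fibrinogen. A platelet has no nucleus, and its own transcripts are largely inherited from the megakaryocyte. In a pool of sorted platelets, fewer platelets carrying a transcript and less of it per platelet cannot be told apart.

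The 2 most abundant of these genes, Ppbp and Pf4, lie next to each other on mouse chromosome 5, on the plus strand in the mm10/GRCm38 assembly. Ppbp spans 90768518 to 90770063 and Pf4 spans 90772435 to 90773383, with 2371 bases between them in GENCODE M21. Ppbp encodes a precursor that is cleaved to the neutrophil attractant NAP-2, and Pf4 encodes platelet factor 4, which binds heparin. The 250 bases before the annotated start of each are shown because the text below returns to this pair, read 5′ to 3′ from RefSeq's GRCm38.p6 at chr5:90768268-90768517 for Ppbp and chr5:90772185-90772434 for Pf4. Capitals mark the letters CTTCC or GGAAG, which hold the core read by ETS factors, and TATAAA or TTTATA, known as the box near which transcription starts in many genes.
Ppbp: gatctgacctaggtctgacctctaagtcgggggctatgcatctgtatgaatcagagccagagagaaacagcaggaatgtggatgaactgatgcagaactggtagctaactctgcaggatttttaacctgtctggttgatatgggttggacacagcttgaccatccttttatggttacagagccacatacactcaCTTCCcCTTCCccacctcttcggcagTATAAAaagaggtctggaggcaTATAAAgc
Pf4: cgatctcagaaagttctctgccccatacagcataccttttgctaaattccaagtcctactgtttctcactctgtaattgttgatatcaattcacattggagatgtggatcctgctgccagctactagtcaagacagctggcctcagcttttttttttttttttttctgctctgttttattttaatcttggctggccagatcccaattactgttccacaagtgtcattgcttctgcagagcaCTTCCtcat
Neither window overlaps an annotated exon. The Ppbp window held CTTCC from positions 56 and 50 before the start and TATAAA from positions 30 and 8 before it, and the Pf4 window held CTTCC from position 9 before the start. Neither held GATAA or TTATC, letters that GATA factors read. Searched on both strands, CTTCC was present in 64.1% of 32851 promoter windows of the same length, TATAAA in 12.4% and GATAA in 22.6%. A match is a run of letters, not a measured binding site.

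The level of a gene is its share of a library's counts, scaled to 1000000 (CPM). Total counts ranged from 5411417 to 16179973 per library, and the genes with at least 1 count, called detected, from 807 to 2450. Replicates 1, 2 and 5 of Tomato- had fewer than 1000 detected genes (902, 978 and 807), against 1118 to 2450 in the Tomato+ libraries. They are called the 3 sparse libraries below, and estimates without them are given beside the cargo genes. Each of 12 platelet marker genes, led by Nrgn and Itga2b, had counts in every library, and together they made up 36297 to 49118 CPM of a Tomato+ library and 39565 to 50716 CPM of a Tomato- library. The counts hold no molecular identifiers, so intervals and limits from counts cover counting error alone. The 10 cargo genes held 4.68 ± 0.198% of counts in Tomato+ and 4.40 ± 0.617% in Tomato- (mean ± SD, n = 5 each), with the lowest share, 3.39%, in Tomato- replicate 2.

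The cargo genes fell into 3 sorts. Pf4, Ppbp, Clu, Srgn and Thbs1 were abundant in all 10 libraries. Tgfb1, Mmrn1 and Angpt1 were above 100 CPM in at least 5 libraries each but below 10 CPM or at 0 in others. Ccl5 had no count in any library, and Sparc had counts in 1.

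**Figure D1:**
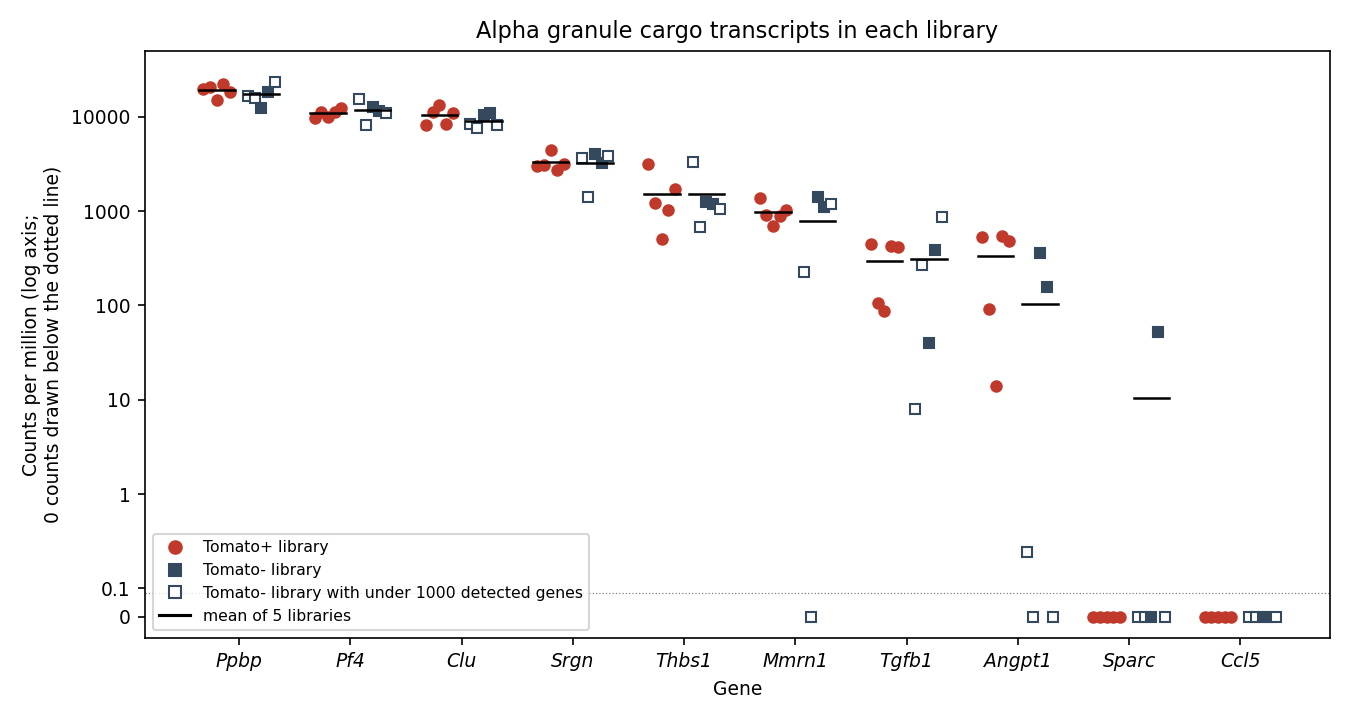
CPM on a log axis for each of the 10 genes, with 1 point per library, red circles for Tomato+, squares for Tomato- and open squares for the 3 sparse Tomato- libraries; black lines are means of 5 libraries. The ranges of the groups overlap for every gene, though those of Ccl5 and Sparc meet only at 0. The points of Tgfb1, Angpt1 and Mmrn1 that lie lowest are Tomato- libraries.

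The CXC chemokine Ppbp had 19483, 20679, 15080, 21993 and 18375 CPM in Tomato+ replicates 1 to 5. In Tomato- replicates 1 to 5 it had 16751, 15647, 12305, 18277 and 23355 CPM. Both the lowest and the highest library were Tomato-, and the Tomato+ range lay inside the Tomato- range. The mean was 19122 ± 2631 CPM in Tomato+ and 17267 ± 4049 CPM in Tomato- (SD, n = 5 each). In edgeR's quasi-likelihood test the log2 fold change of Tomato+ over Tomato- was 0.39 (SE 0.17, 95% interval 0.02 to 0.76, unadjusted p = 0.0388), and it did not pass after Benjamini-Hochberg adjustment over 1016 tested genes (adjusted p = 0.9996). It was 0.15 with scaling by total counts and 0.21 with RLE size factors, where 0 cargo genes had an unadjusted p under 0.05, and 0.34 without the 3 sparse libraries.

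Pf4 had 9635, 11183, 9888, 11194 and 12353 CPM in Tomato+ replicates 1 to 5. In Tomato- it had 15331, 8239, 12617, 11378 and 10886 CPM. As with Ppbp, the Tomato- libraries extended past the Tomato+ range at both ends. The means were 10851 ± 1105 CPM and 11690 ± 2587 CPM. The log2 fold change was 0.11 (SE 0.22, edgeR adjusted p = 0.9996), with a 95% interval of 0.783-fold to 1.49-fold, and it was -0.11 when libraries were scaled by total counts, -0.036 without Tomato- replicate 2 and -0.099 without the 3 sparse libraries. The lowest library still held 58907 counts of Pf4, so counting error was at most 0.412% of the value, against a coefficient of variation of 10.2% among Tomato+ and 22.1% among Tomato- libraries.

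A ratio of 2 genes within a library needs no scaling between libraries. The count of Ppbp divided by that of Pf4 was 2.02, 1.85, 1.53, 1.96 and 1.49 in Tomato+ replicates 1 to 5. It was 1.09, 1.90, 0.975, 1.61 and 2.15 in Tomato- replicates 1 to 5. Ppbp exceeded Pf4 in counts in 9 of 10 libraries, with Tomato- replicate 3 as the exception. The mean ratio was 1.77 ± 0.249 in Tomato+ and 1.54 ± 0.505 in Tomato-. The mean log2 ratio differed by 0.25, beside an SD of 0.21 among Tomato+ libraries and 0.50 among Tomato- libraries. The exact two-sided permutation test gave p = 0.357 over 252 assignments (n = 5 each, smallest possible p 0.00794).

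**Figure D2:**
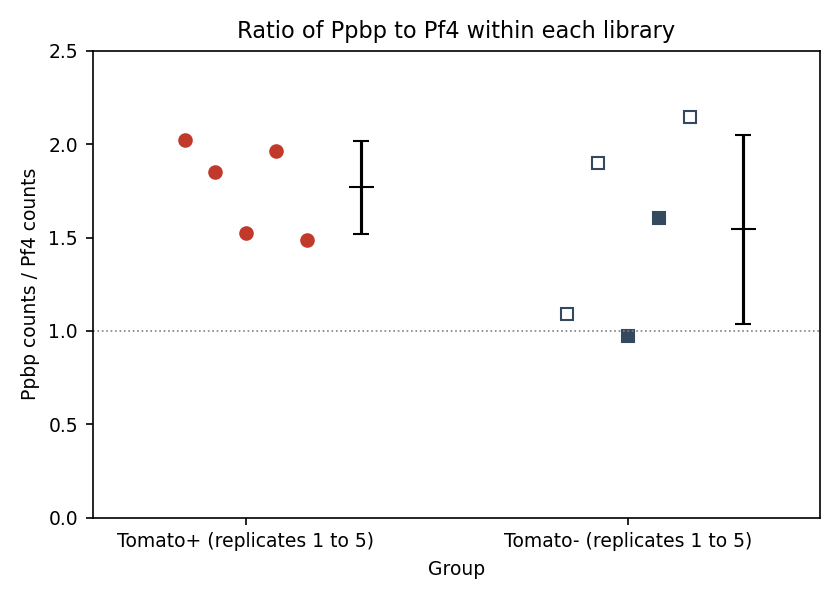
Counts of Ppbp divided by counts of Pf4 in each library, with red circles for Tomato+, squares for Tomato-, open squares for the 3 sparse libraries, and mean ± SD beside each group of 5. Tomato+ libraries lie between 1.49 and 2.02 and Tomato- libraries between 0.975 and 2.15.

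The third chemokine, Ccl5 (chromosome 11, 83525778 to 83530518, minus strand), encodes the CC chemokine RANTES, which T and NK cells also express. It had 0 counts in all 10 libraries. Over the 59543078 counts of Tomato+ this allows up to 0.0504 CPM, over the 42729757 of Tomato- up to 0.0702 CPM, and in single libraries up to 0.185 to 0.554 CPM. Losses between libraries exceeded counting error by far for other genes of this group, so these limits do not bound its level in the platelets. Of 13 marker genes of T and NK cells, 12 were also at 0, Cd3e and Gzmb among them, and 1 was Nkg7, which had 20.7 CPM in 1 Tomato- library. Of 23 other chemokine genes in the table, 2 had any count, where 4692 of all 23420 genes did. Cxcl5 was counted in 2 Tomato+ libraries, with up to 192 CPM, and in 1 of Tomato-, and Cxcl12 had 22.9 CPM in 1 Tomato- library. Among all these chemokine genes, Pf4 and Ppbp alone had counts in every library.

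Serglycin, the product of Srgn (chromosome 10, 62493833 to 62527451, minus strand), is the proteoglycan whose negatively charged chains hold Pf4 and other basic cargo in the granule. Srgn had 2978, 3097, 4392, 2755 and 3134 CPM in Tomato+ replicates 1 to 5. In Tomato- it had 3631, 1424, 4012, 3259 and 3835 CPM. Tomato- replicate 2 was lowest of all 10 libraries, and Tomato+ replicate 3 was highest. The group means were nearly equal, at 3271 ± 644 CPM and 3232 ± 1049 CPM (log2 fold change 0.21, SE 0.34, edgeR adjusted p = 0.9996). Without the 3 sparse libraries the log2 fold change was -0.077. Of 19 genes for the chondroitin sulphate chains that serglycin carries, 7 had any count and 0 had one in every library. Over the whole table, 4692 of 23420 genes had any count and 264 had one in every library. Of all tested genes 58.3% were estimated higher in Tomato+. Both tested members of this list, the sulphotransferase gene Chst12 and Csgalnact1, which starts the chain, were estimated lower, and neither passed. Their log2 fold changes were -0.026 and -1.09, and -1.11 and -2.43 without the 3 sparse libraries. Chst12 had 299 ± 219 and 307 ± 400 CPM, and Csgalnact1 had 129 ± 175 and 261 ± 396 CPM. Fam20b, a kinase of the linker between chain and protein, was not tested and had counts in 2 Tomato+ and 3 Tomato- libraries.

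Clu (chromosome 14, 65968483 to 65981547, plus strand) encodes clusterin, a secreted chaperone. It had 8263, 11344, 13271, 8453 and 11021 CPM in Tomato+ and 8302, 7644, 10540, 10832 and 8155 CPM in Tomato- replicates 1 to 5. The 3 highest libraries were Tomato+ and the 2 lowest Tomato-, with the others interleaved. Means were 10470 ± 2113 and 9094 ± 1477 CPM (log2 fold change 0.40, SE 0.24, 95% interval -0.11 to 0.91, edgeR adjusted p = 0.9996). All 3 sparse libraries lay between 7644 and 8302 CPM and the other 2 Tomato- libraries between 10540 and 10832 CPM. Without those 3 the log2 fold change was 0.043, and the part of the low number of detected genes in the difference was not tested.

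Thbs1 (chromosome 2, 118111876 to 118127133, plus strand) encodes thrombospondin 1, an adhesive matrix protein that binds CD36 and CD47. It had 3145, 1226, 505, 1028 and 1722 CPM in Tomato+ replicates 1 to 5. In Tomato- it had 3337, 683, 1262, 1202 and 1063 CPM. Replicate 1 was highest in each group, and the range within a group was 6.23-fold in Tomato+ and 4.89-fold in Tomato-. The means of 1525 ± 1005 and 1509 ± 1046 CPM differed by far less than this spread (log2 fold change 0.21, SE 0.55, edgeR adjusted p = 0.9996). The estimate was 0.71 without Tomato- replicate 1, -0.21 without Tomato+ replicate 1, -0.065 without Tomato- replicate 2 and 0.25 without the 3 sparse libraries. The long noncoding gene model Gm29233 overlaps Thbs1 on the other strand, and whether counting used strand was not stated, so reads of the 2 cannot be told apart. Of the receptor genes listed for this cargo, Cd47 averaged 1022 ± 766 CPM in Tomato+ against 1257 ± 1245 CPM in Tomato-, Cd44, the hyaluronan receptor, 490 ± 382 and 621 ± 424 CPM, and Cd36 none.

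Transforming growth factor beta 1, the product of Tgfb1 (chromosome 7, 25687002 to 25705077, plus strand), is stored as a latent complex and released by activated platelets. Tgfb1 had 449, 105, 87.9, 431 and 413 CPM in Tomato+ replicates 1 to 5. In Tomato- it had 7.97, 267, 39.7, 382 and 859 CPM. The lowest and highest values were both Tomato- and lay 108-fold apart, from 65 to 4651 counts. Means were 297 ± 184 and 311 ± 344 CPM, and without Tomato- replicate 5 the Tomato- mean was 174 CPM. The log2 fold change of 0.22 had a 95% interval of -3.23 to 3.67 (edgeR adjusted p = 0.9996), or 0.106-fold to 12.7-fold. It was -0.062 with scaling by total counts and ranged from -0.20 without Tomato- replicate 1 to 0.91 without Tomato- replicate 5. It was also below 0 without Tomato- replicate 3 (-0.17), Tomato+ replicate 1 (-0.083) or Tomato+ replicate 5 (-0.032), and it was 0.43 without the 3 sparse libraries. Of 19 genes of TGF-beta latency and signalling in the table, 9 had any count, where 4692 of all 23420 genes did. Of the 9, 1 was tested, Ltbp1. Ltbp1, which encodes the protein that tethers latent TGF-beta to matrix, averaged 635 ± 518 CPM in Tomato+ against 432 ± 282 CPM in Tomato- (log2 fold change 0.76, SE 1.14, edgeR adjusted p = 0.9996), and the estimate was 0.25 without the 3 sparse libraries. Ltbp2 had counts in 1 Tomato- library alone, and Lrrc32, which encodes the GARP docking receptor, in 2 Tomato+ libraries.

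Angpt1 (chromosome 15, 42424723 to 42676977, minus strand) encodes angiopoietin 1, the agonist of the endothelial receptor Tie2. It had the largest estimated fold change and the widest interval of the tested cargo genes. In Tomato+ replicates 1 to 5 it had 530, 90.9, 14.0, 545 and 478 CPM, and in Tomato- 0.245, 0, 362, 156 and 0 CPM. Every Tomato+ library held counts, from 91 to 8819, while Tomato- replicates 2 and 5 held none and replicate 1 held 2. These are the 3 sparse libraries, and the other 2 Tomato- libraries lay within the Tomato+ range. Means were 332 ± 257 and 104 ± 159 CPM, and the Tomato- mean was 39.1 CPM without replicate 3 and 259 CPM without the 3 libraries. The log2 fold change was 1.65 (SE 2.32, 95% interval -3.28 to 6.58, edgeR adjusted p = 0.9996) and 0.32 without the 3 libraries, and the part of the low number of detected genes in it was not tested. Without Tomato- replicate 3 it was 3.12, with limma voom 6.83 and with the replicate number as a block 9.72, and none of these passed. The antisense gene model Gm17473 overlaps Angpt1, with the same limit as for Thbs1. Tek, which encodes Tie2, was at 0 in all libraries, while Tie1 of the same receptor family averaged 48.7 ± 64.5 CPM in Tomato+ against 120 ± 71.6 CPM in Tomato-.

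Multimerin 1, the product of Mmrn1 (chromosome 6, 60924976 to 60989378, plus strand), is a large polymer that binds coagulation factor V in the granule. It had 1362, 919, 695, 876 and 1020 CPM in Tomato+ replicates 1 to 5. In Tomato- it had 226, 0, 1418, 1110 and 1195 CPM. Tomato- replicates 3, 4 and 5 were thus at or above most Tomato+ libraries, while replicate 2 had no count in 7994939 and replicate 1 was below all Tomato+ libraries. Means were 974 ± 247 and 790 ± 633 CPM (log2 fold change 0.40, SE 1.22, edgeR adjusted p = 0.9996). Without the 3 sparse libraries the sign turned (-0.37), and without Tomato- replicate 2 alone the estimate was 0.087. F5, the gene of its binding partner, was itself uneven, with 986 ± 594 and 1010 ± 763 CPM.

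Sparc (chromosome 11, 55394500 to 55423183, minus strand) encodes osteonectin, a collagen-binding matrix protein. Tomato- replicate 4 held 554 counts, or 52.3 CPM (95% Wilson interval 48.1 to 56.8), and the other 9 libraries held 0. That library had 2430 detected genes, the most of any Tomato- library, while Tomato+ replicate 5 had 2450 and no count of Sparc. Without Tomato- replicate 4 the Tomato- level was 0, and Sparc did not enter the test.

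Compared per kilobase of annotated exon, Ppbp and Pf4 stood above the rest, with 16800 ± 3107 and 15631 ± 2672 CPM per kilobase over all 10 libraries. These neighbours in the order did not differ beyond their spread, since Ppbp was above Pf4 in 7 of 10 libraries and their order turned when the longest transcript of the GENCODE basic set gave the length. Clu followed with 2846 ± 543 and Srgn with 1481 ± 374 CPM per kilobase, and each of these steps (Pf4 to Clu, Clu to Srgn, Srgn to Thbs1) held in 10 of 10 libraries with no overlap of ranges. Below them Thbs1 had 249.8 ± 159, Mmrn1 150.3 ± 78.9, Tgfb1 60.3 ± 51.6 and Angpt1 41.8 ± 45.1 CPM per kilobase, and the ranges of neighbours overlapped. Thbs1 was above Mmrn1 in 7, Mmrn1 above Tgfb1 in 9 and Tgfb1 above Angpt1 in 6 of 10 libraries.

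How often a gene was missed followed its level in the table as a whole. All 15 genes with a mean above 10000 CPM had counts in every library, as did 122 of 132 genes between 1000 and 10000 CPM. Between 100 and 1000 CPM, where Tgfb1, Angpt1 and Mmrn1 lie, 104 of 642 did (16.2%). Tgfb1 was among these 104, while Mmrn1 was missed in 1 library and Angpt1 in 2. The coefficient of variation over 10 libraries was 17.1% for Pf4 and 18.5% for Ppbp, beside a median of 16.3% for the 15 genes of that level. It was 19.1% for Clu, 25.2% for Srgn and 63.7% for Thbs1, beside a median of 41.2% for their level. It was 52.5% for Mmrn1, 85.5% for Tgfb1 and 108% for Angpt1, beside 112%.

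**Figure D3:**
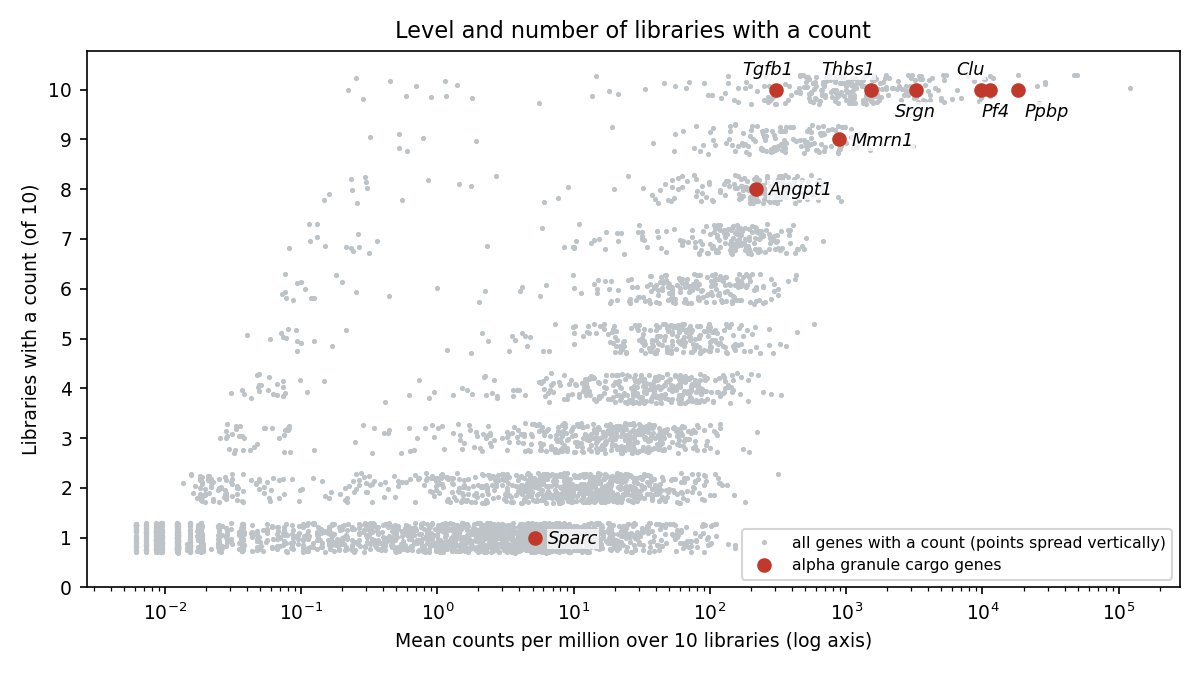
Number of libraries with a count, of 10, against the mean level over all libraries on a log axis, with grey points for all 4692 genes with any count and red points for the cargo genes. Ccl5, at 0, is not drawn. Angpt1 had counts in 8 libraries, Mmrn1 in 9 and Sparc in 1.

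Of the 10 genes, 8 passed the filter on low counts, and 0 of these 8 were called between Tomato+ and Tomato- at an adjusted p under 0.05 with edgeR, where 0% of 1016 tested genes were called. At an unadjusted p under 0.05, Ppbp was the 1 cargo gene, where 0.886% of tested genes (9 of 1016) were. DESeq2 called 216 genes (9.64% of those with an adjusted p) and 0 of the same 8 (Sparc got no adjusted p), and limma voom called 1 gene (0.0984%), Ctla2a, which is not among them. The ranges of the groups overlapped for each of the 8 tested cargo genes, where 0.591% of tested genes did not overlap. All 8 tested cargo genes had a log2 fold change above 0, with a median of 0.30. Over all tested genes 58.3% were above 0 and the median was 0.21. With scaling by total counts, which lowers the median of all genes by 0.24, 6 of 8 were above 0 (median 0.08), where 48.6% of all were. Without the 3 sparse libraries 5 of 8 were (median 0.15), where 49.6% of all were. Relative to the median of all tested genes, Clu lay 0.20, Ppbp 0.18, Mmrn1 0.19 and Angpt1 1.44 above on the log2 scale. Pf4 lay at -0.098 from that median, Srgn at 0.0011, Thbs1 at -0.0017 and Tgfb1 at 0.012.

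**Figure D4:**
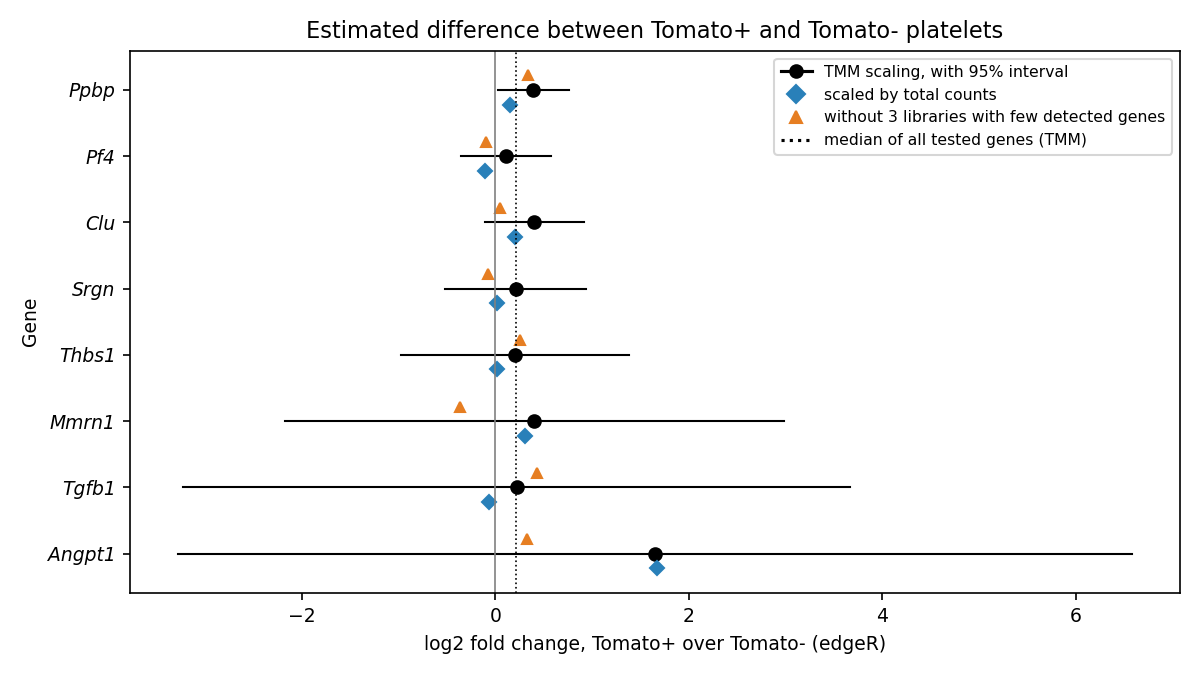
Log2 fold change of Tomato+ over Tomato- from edgeR for the 8 tested genes, with black points and 95% intervals for TMM scaling, blue diamonds for scaling by total counts, orange triangles without the 3 sparse libraries, and a dotted line at the median of all tested genes, 0.21. Intervals widen from Ppbp (0.02 to 0.76) to Angpt1 (-3.28 to 6.58), and the triangle of Angpt1 lies at 0.32 against its main estimate of 1.65.

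The profile over the 10 libraries, as log2 CPM centred on each gene's mean, was compared among the 225 genes with at least 10 counts in every library. The gene with the smallest root mean square difference from Pf4 was Gng11, a G protein gamma subunit (0.18, where the median gene was at 0.68). For Clu it was the cathepsin inhibitor Ctla2a (0.18), for Ppbp the GTP cyclohydrolase regulator Gchfr (0.20), and for Srgn the alpha granule membrane receptor Treml1 (0.22). For Thbs1 it was catalase, Cat (0.52), and for Tgfb1 filamin A, Flna (1.06). Pf4 and Ppbp were 0.36 apart, so neither was the nearest gene of the other. Genes with little spread lie near each other on this measure, which has no test.

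Other genes of the granule, from lists chosen with earlier results of these data known, also held both abundant and absent transcripts. Over the whole table, 4692 of 23420 genes had any count. Among genes of the granule membrane, 15 of 18 had counts, 9 were tested and 8 of these were estimated higher in Tomato+, where 58.3% of all tested genes were, but 0 passed. With scaling by total counts 7 of 9 were higher, where 48.6% of all were, and without the 3 sparse libraries 9 of 14, where 49.6% were. The tetraspanin Cd9 averaged 26316 ± 4014 CPM in Tomato+ against 24076 ± 3152 CPM in Tomato-, the fibrinogen receptor subunit Itga2b 8707 ± 2191 and 10179 ± 2334 CPM, and Treml1 2295 ± 508 and 2083 ± 835 CPM. Of 31 other matrix proteins and inhibitors, 12 had counts and 7 were tested, 6 with a higher estimate, and none passed. With scaling by total counts 4 of 7 were higher, and without the 3 sparse libraries 2 of 7, against the same shares of all genes. Vwf, which encodes von Willebrand factor, had 4964 ± 463 and 5240 ± 1063 CPM, and Ecm1, which encodes extracellular matrix protein 1, had 3348 ± 844 and 2809 ± 526 CPM. Fibronectin, Fn1, was at 0 in all libraries.

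Of 24 other growth factor genes, 4 had any count, where 4692 of all 23420 genes did, and 1 was tested. Pdgfa, a chain of platelet-derived growth factor, had 194 ± 129 and 170 ± 221 CPM, with counts in 5 Tomato+ and 3 Tomato- libraries, and Pdgfb, the other main chain, was at 0. Il1b had 1524 CPM in 1 Tomato+ library and 0 in the other 9, and Tnfsf14 had counts in 1 library of each group. Of 22 genes of granule biogenesis and sorting, 9 had any count and 2 were tested, M6pr and Rab7. Both had a lower estimate in Tomato+, where 58.3% of all tested genes had a higher one, and neither was called. Without the 3 sparse libraries 3 genes of this list were tested and 2 had a higher estimate, where 49.6% of all did. These 2 were M6pr (3.74) and Rab7 (0.14). Nbeal2, Vps33b and Vipas39, which are needed to form alpha granules, were at 0 in all 10 libraries. The mannose 6-phosphate receptor gene M6pr had 57.5 ± 58.2 and 351 ± 476 CPM, Rab7 26.4 ± 39.1 and 36.6 ± 56.0 CPM, and Vps41 counts in 1 Tomato- library.

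Several of these genes are also expressed by other blood and vessel cells. Neutrophil markers had counts for 2 of 12 genes, Clec4d and S100a9, with sums of 0 to 532 CPM in Tomato+ against 0 to 276 CPM in Tomato-, and S100a8, Elane and Mpo were at 0. Monocyte and macrophage markers were led by Lyz2 (7672 ± 1117 and 7857 ± 1189 CPM), followed by Ms4a6c in 1 Tomato- library, with Csf1r and Ccr2 at 0. Summed, they came to between 6256 and 8692 CPM in Tomato+ against 5881 to 9029 CPM in Tomato-. Endothelial markers summed to 464 to 1501 CPM and 130 to 1725 CPM, led by Pecam1, which platelets express as well, with Cdh5 and Tek at 0. Red cell markers, led by Beta-s and Bsg, summed to 504 to 1052 CPM and 47.8 to 4021 CPM. The globin gene Beta-s had 130.0 ± 132 CPM in Tomato+ against 879 ± 1353 CPM in Tomato- (log2 fold change -2.71, and -3.93 without the 3 sparse libraries), and Bsg had 743 ± 239 against 356 ± 333 CPM (1.17 and 0.54). Neither passed, and Hba-a1, Hba-a2, Hbb-b1 and Hbb-b2 were at 0. The handling of multiply aligned reads was not stated, so these zeros do not bound the globin RNA present. Among B cell markers Cd37 alone had counts, in 2 Tomato+ libraries, and mast cell and basophil markers had none. The part of other cells in the cargo levels was not tested.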

How the data were processed

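Polyadenylated RNA of sorted platelets was sequenced in 5 Tomato+ and 5 Tomato- libraries. The authors deposited 1 table of raw read counts per gene symbol. Trimmomatic, FastQC, STAR, featureCounts and mm10 are named, without versions, in the submitters' processing notes. The annotation, strand setting and handling of multiply aligned reads were not stated. All 10 symbols matched GENCODE M21 (GRCm38), the source of coordinates and exon lengths. Promoters came from RefSeq's GRCm38.p6 table.

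CPM used the sum of all rows. Genes were compared by the quasi-likelihood F test of edgeR 4.0.16 in R 4.3.3, with robust fitting, TMM scaling and group as the only term. The default filter asked for the level of 10 counts in a library of median size, in at least as many libraries as a group holds. It also asked for at least 15 counts in total. A gene was called where its p-value, adjusted by the method of Benjamini and Hochberg, was under 0.05. How often this test finds a true difference at the spread of these libraries is not given. A gene that was not called may therefore still differ. Log2 fold changes are Tomato+ over Tomato-. Alternatives used DESeq2 1.42.0 and limma 3.58.1. The 10 genes and all lists were chosen with earlier results of these data known. Besides the 10, the text names the 3 most abundant genes of each pathway list, the 2 most abundant of each marker list, and the nearest profile of each cargo gene with 10 counts in every library; Nbeal2, Vps33b, Vipas39, Fn1, Pdgfb, Cd36, Tek and marker genes at 0 were named after their values were seen. Chi-square tests of all 45 library pairs found each pair to differ beyond counting noise. The 3 Tomato- libraries with under 1000 detected genes are called sparse.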

Additional observations from a re-analysis of the deposited data

Results flagged for a closer look

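In 3 of the 19 groups of 5 libraries that were checked, 1 library stood apart from the other 4, by a gap of more than 0.71 of the group's range. That cut marks about 1 in 20 groups of normally distributed values. CPM values that are skewed or hold zeros need not follow that rate, so the 3 groups are not read as an excess. Srgn had 4392 CPM in Tomato+ replicate 3, where the other Tomato+ libraries had 2755 to 3134 CPM. Thbs1 had 3337 CPM in Tomato- replicate 1, where the others had 683 to 1262 CPM. Sparc had 52.3 CPM in Tomato- replicate 4 and 0 in the others, and a gene counted in 1 library of a group alone always meets this rule.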

How the results depend on the processing

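With 1 library left out, 0 genes passed in edgeR in any of 10 cases, between 6 and 8 of the 8 tested cargo genes had a higher estimate in Tomato+, and the difference in the log2 ratio of Ppbp to Pf4 ranged from 0.10 to 0.39 (exact permutation p from 0.190 to 0.714). The log2 fold changes ranged from -0.036 to 0.23 for Pf4, -0.21 to 0.71 for Thbs1, -0.20 to 0.91 for Tgfb1, 0.028 to 0.34 for Srgn, 0.087 to 0.79 for Mmrn1, 1.33 to 3.12 for Angpt1, 0.28 to 0.50 for Ppbp and 0.30 to 0.54 for Clu, and none passed. With 10 counts required in every library, 6 cargo genes were tested and 4 had a higher estimate, and without the 3 sparse libraries 5 of 8 did. Pf4 turned to -0.038 with RLE size factors, -0.11 with total counts, -0.031 with 10 counts in every library, -0.028 with DESeq2 and -0.099 without the 3 sparse libraries. Tgfb1 turned to -0.032, -0.062, -0.0098 and -0.014 in the first 4 of these. Srgn (-0.077) and Mmrn1 (-0.37) turned without the 3 libraries. The cause of these turns was not tested.

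DESeq2 called 216 genes; 180 of them lacked any count in 1 group and the median gene had counts in 2 libraries. Limma voom called Ctla2a (log2 fold change 0.59, SE 0.024, adjusted p = 9.5e-08), although its CPM was 49338 ± 6120 in Tomato+ and 49549 ± 4209 in Tomato-. In same-numbered pairs the correlation of deviations across 225 genes ranged from -0.023 to 0.25, and 1 of 5 was above 0.1. In pairs of unlike number it ranged from -0.23 to 0.13. Of 10 libraries, 3 correlated best with their own number. So few pairs cannot decide whether the numbers mark a pairing. With the replicate block edgeR called 0 genes (17 at an unadjusted p under 0.05) and 8 of 8 cargo genes had a higher estimate, where 68.4% of all genes did, but their median of 0.42 lay below that of all genes, 0.56. Limma voom and the block gave 6.83 and 9.72 for Angpt1, 3.63 and 1.24 for Mmrn1 and 1.43 and 0.73 for Tgfb1, none of which passed. With limma voom 69.9% of all tested genes were estimated higher, with a median of 0.95, and the median of the 8 cargo genes was 0.53. The sign-flip test of the Ppbp to Pf4 ratio paired by number, which cannot go below an exact p of 0.0625, did not pass either. The mean absolute difference gave Mapk6 in place of Flna as nearest to Tgfb1. At these depths the spread between libraries of Pf4, Ppbp, Srgn and Clu exceeded the counting error of reads. Without molecular identifiers, the sampling of RNA molecules cannot be told apart from that spread.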
